A study of Mus musculus with 10 samples.

Results

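Choroid plexus marker genes were followed in the whole hippocampus of 10 mice, adult SJL/J females, at 2 days after an axonal lesion. The set was fixed by name as Ttr, Kl, Ace, Folr1, Aqp1, Clic6, Enpp2, Otx2, Kcnj13 and Sostdc1, and every probe set whose only annotated symbol was one of these names was taken. This gave 16 probe sets for 9 of the 10 genes, out of 18193 genes with a singly annotated probe set on the array. Enpp2, which encodes autotaxin, had no probe set with that name as its only symbol in the annotation used and was not analysed here.

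The TPlp+AxL group had 5 mice that received T cells specific for proteolipid protein (Plp), a major myelin protein, by adoptive transfer and were then lesioned. The AxL group had 5 mice with the lesion alone. Strain, sex, tissue and survival time were shared by both groups, so both carried the lesion and neither is an unlesioned state. Each mouse gave 1 array, and all values are log2 expression values made by the authors with RMA, on which a difference of 1 is a doubling. The labels name the tissue as whole hippocampus and give no date, slide or dissection batch.

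The choroid plexus is a fold of vascular tissue in the brain ventricles, covered by an epithelium that secretes cerebrospinal fluid and forms the barrier between blood and that fluid. Its epithelial cells carry ion and water channels on the ventricular side, import vitamins such as folate, and release carrier proteins, among them transthyretin. A sheet of this tissue lies in the lateral ventricle against the fimbria, beside the hippocampus. In bulk tissue, fewer cells of a type and less RNA per cell cannot be told apart.

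3 arrays stood apart from the other 7 in these genes. Per array, the mean log2 level over the 9 genes, each taken from its brightest probe set (the representative one, highest on average), was 9.73, 8.48, 8.46, 8.42 and 8.44 in TPlp+AxL mice 1 to 5, against 8.53, 8.45, 10.54, 8.38 and 9.67 in AxL mice 1 to 5. TPlp+AxL 1, AxL 3 and AxL 5 were thus the 3 highest, and the gap of 1.14 below them took up 52.7% of the whole range of 2.16. Each comparison of the groups is therefore given over all 10 arrays and again without these 3, a choice made after seeing the data. The 3 arrays were picked by the values of these same genes. Intervals and p-values of the markers without them are therefore descriptive only and cannot be read as tests. Over all probe sets the arrays had medians between 7.88 and 7.92.

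The regulator among the markers is Otx2, a homeodomain transcription factor needed for the choroid plexus to form and to be maintained. Its binding core, TAATCC, which reads GGATTA on the opposite strand, was looked for in RefSeq promoter windows of assembly GRCm38.p6, each running from 250 bases before to 50 bases after a transcript start. Windows were given for 5 of the 10 genes, namely Kcnj13, Kl, Aqp1, Ace and Otx2, with 9 windows in all. The core stood in 2 of those 9 windows, 1 of Ace and 1 of Otx2, against 7.06% of the 32851 windows of all genes. The windows with the core are shown in full, and the Kcnj13 window is shown beside them as that of the gene with the largest spread. They lie at chr11:105967698-105967997 on the plus strand (Ace), chr14:48665060-48665359 on the minus strand (Otx2) and chr1:87394680-87394979 on the minus strand (Kcnj13). Each is written 5′ to 3′ along the gene's strand, with the core in capitals.
Ace: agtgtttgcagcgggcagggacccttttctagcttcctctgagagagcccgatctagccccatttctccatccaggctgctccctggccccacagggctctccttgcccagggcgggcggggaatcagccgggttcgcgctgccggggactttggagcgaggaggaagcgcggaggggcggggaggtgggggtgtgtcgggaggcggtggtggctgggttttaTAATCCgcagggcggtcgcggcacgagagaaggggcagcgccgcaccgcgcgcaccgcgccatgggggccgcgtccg
Otx2: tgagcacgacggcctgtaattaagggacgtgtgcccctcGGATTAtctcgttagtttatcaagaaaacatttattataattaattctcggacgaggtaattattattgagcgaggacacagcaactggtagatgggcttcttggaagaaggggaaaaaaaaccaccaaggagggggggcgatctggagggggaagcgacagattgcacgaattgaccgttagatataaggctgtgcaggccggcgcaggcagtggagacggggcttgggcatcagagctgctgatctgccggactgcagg
Kcnj13: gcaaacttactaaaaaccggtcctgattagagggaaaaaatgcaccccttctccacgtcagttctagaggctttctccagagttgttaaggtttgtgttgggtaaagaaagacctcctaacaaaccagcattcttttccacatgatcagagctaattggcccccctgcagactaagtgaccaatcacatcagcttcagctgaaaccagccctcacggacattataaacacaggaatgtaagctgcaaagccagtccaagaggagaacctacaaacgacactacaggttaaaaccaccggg
The Kcnj13 window held no copy of these letters. A match describes the letters of the window and was not tested as a binding site.

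The log2 level of Otx2 (1425926_a_at) was 7.81, 6.82, 6.82, 6.86 and 6.70 in TPlp+AxL mice 1 to 5, against 6.83, 6.82, 8.42, 6.71 and 7.52 in AxL mice 1 to 5. The 3 high arrays are the ones named above, and the groups overlapped. Otx2 averaged 7.0 ± 0.45 in TPlp+AxL and 7.26 ± 0.72 in AxL (SD, n = 5 each), a log2 change of -0.26 (95% interval -0.97 to 0.44, limma adjusted p = 0.729). Without the 3 arrays the log2 change of Otx2 was 0.01 (adjusted p = 0.949). The table has no detection calls, so whether the lowest Otx2 values lie above background was not tested.

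Kcnj13, the inward-rectifier potassium channel Kir7.1 of the ventricular membrane, varied more within the groups than any other probe set on the array. Its log2 level (1456418_at) was 10.51, 7.73, 7.69, 7.67 and 7.61 in TPlp+AxL mice 1 to 5, against 7.93, 7.73, 12.03, 7.78 and 10.52 in AxL mice 1 to 5. The highest array was 21.5-fold above the lowest on the linear scale, while the 7 low arrays lay between 7.61 and 7.93. The residual SD of Kcnj13 was 1.66 log2 units, rank 1 of 45037. The log2 change was -0.96 (95% interval -2.88 to 0.97, limma adjusted p = 0.630), from means of 8.24 ± 1.27 in TPlp+AxL and 9.20 ± 1.97 in AxL (SD, n = 5 each). Without the 3 arrays the log2 change of Kcnj13 was -0.14 (95% interval -0.28 to -0.01, unadjusted p = 0.0422, limma adjusted p = 0.463).

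Folr1, the folate receptor that carries folate across the epithelium into the cerebrospinal fluid, had log2 levels (1450995_at) of 9.58, 7.82, 7.68, 7.67 and 7.65 in TPlp+AxL mice 1 to 5, against 7.84, 7.91, 11.19, 7.39 and 9.41 in AxL mice 1 to 5. The range over the arrays was 13.9-fold, and the same 3 arrays were high. Folr1 averaged 8.08 ± 0.84 in TPlp+AxL and 8.74 ± 1.56 in AxL (SD, n = 5 each), a log2 change of -0.67 (95% interval -2.13 to 0.79, limma adjusted p = 0.660). Without the 3 arrays it was -0.01 (95% interval -0.28 to 0.27).

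Aqp1, the water channel of the ventricular membrane, had log2 levels (1416203_at) of 8.07, 7.21, 7.23, 7.24 and 7.27 in TPlp+AxL mice 1 to 5, against 7.06, 7.13, 8.76, 7.07 and 7.74 in AxL mice 1 to 5. Its log2 change over all arrays was -0.15 (95% interval -0.83 to 0.53, limma adjusted p = 0.854). Among the other 7 arrays the 4 TPlp+AxL values, 7.21 to 7.27, all lay above the 3 AxL values, 7.06 to 7.13. The log2 change there was 0.16 (95% interval 0.06 to 0.25, unadjusted p = 0.00447), which did not pass after adjustment (limma adjusted p = 0.327). Leaving out arrays by the marker values also narrowed the spread of Aqp1. Its standard error was 0.31 over all arrays and 0.04 without the 3, so this p-value is descriptive only.

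Clic6, a member of the chloride intracellular channel family, was measured by 2 probe sets that differed in how far they spread. The brighter one (1434165_at) had log2 levels of 9.32, 9.0, 8.99, 8.82 and 8.90 in TPlp+AxL mice 1 to 5, against 9.0, 8.96, 9.72, 8.82 and 9.19 in AxL mice 1 to 5. The other (1454866_s_at) had 10.03, 8.13, 7.93, 7.84 and 7.93 in TPlp+AxL mice 1 to 5, against 7.94, 7.88, 11.34, 7.74 and 9.73 in AxL mice 1 to 5. Both had the same 3 arrays on top, but the range was 1.86-fold for the brighter and 12.1-fold for the other. The log2 changes were -0.13 (limma adjusted p = 0.712) and -0.55 (limma adjusted p = 0.732), and 0.00 and 0.10 without the 3 arrays.

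Ttr encodes transthyretin, the carrier of thyroid hormone and of retinol-binding protein that the epithelium secretes in bulk. Its brightest probe set (1454608_x_at) had log2 levels of 14.68, 12.98, 12.84, 12.93 and 13.16 in TPlp+AxL mice 1 to 5, against 12.97, 12.96, 14.71, 12.88 and 14.73 in AxL mice 1 to 5. A second (1451580_a_at) had 14.54, 11.47, 11.46, 11.54 and 11.75 in TPlp+AxL mice 1 to 5, against 11.51, 11.60, 14.86, 11.38 and 14.38 in AxL mice 1 to 5, and its 14.86 was the highest value of the whole table. The other two probe sets, 1455913_x_at and 1459737_s_at, ran from 11.97 to 14.12 and from 12.38 to 14.26 in TPlp+AxL, against 11.95 to 13.96 and 12.44 to 14.38 in AxL. The same 3 arrays were highest by all 4 Ttr probe sets. The log2 change was -0.33 for the brightest (95% interval -1.35 to 0.69, limma adjusted p = 0.769) and -0.59 for the second (95% interval -2.38 to 1.20, limma adjusted p = 0.762), and 0.04 and 0.06 without the 3 arrays.

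The 4 Ttr probe sets differed in which of the 3 arrays came highest: AxL 3 in 1451580_a_at, TPlp+AxL 1 in 1455913_x_at and AxL 5 in both others. In all 12 marker probe sets of the other genes AxL 3 was highest. AxL 3 exceeded AxL 5 by 1.51 log2 units in Kcnj13, by 1.78 in Folr1 and by 1.11 in the brighter Sostdc1 probe set, while the difference was -0.02 in the brightest Ttr probe set and 0.48 in 1451580_a_at. Against TPlp+AxL 1, AxL 3 was higher by 1.52 in Kcnj13, by 0.02 in the brightest Ttr probe set and by 0.32 in 1451580_a_at. The Ttr values lie at the upper end of the scale, and saturation was not tested.

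Sostdc1, a secreted antagonist of BMP and Wnt signalling, had log2 levels (1449340_at) of 10.42, 8.73, 8.69, 8.48 and 8.61 in TPlp+AxL mice 1 to 5, against 8.90, 8.58, 11.46, 8.44 and 10.35 in AxL mice 1 to 5. Its second probe set (1460250_at) had 8.85, 7.64, 7.70, 7.62 and 7.54 in TPlp+AxL mice 1 to 5, against 7.77, 7.62, 10.18, 7.35 and 8.94 in AxL mice 1 to 5. Both probe sets showed the same 3 arrays on top. The log2 changes of Sostdc1 were -0.56 (95% interval -1.83 to 0.71, limma adjusted p = 0.670) and -0.50 (limma adjusted p = 0.650), and the first was -0.01 without the 3 arrays.

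Kl encodes alpha-Klotho, a co-receptor for the hormone FGF23 that is also shed into the cerebrospinal fluid. Its first probe set (1423400_at) had log2 levels of 8.72, 7.80, 7.99, 7.91 and 7.90 in TPlp+AxL mice 1 to 5, against 7.98, 7.72, 9.67, 8.09 and 8.99 in AxL mice 1 to 5. The 3 arrays were again highest, and the log2 change of -0.43 (95% interval -1.16 to 0.31, limma adjusted p = 0.572) became -0.03 without them. The second Kl probe set (1451892_at) ran only from 7.13 to 7.23 in TPlp+AxL and from 6.94 to 7.36 in AxL, and its 3 highest arrays were not the same 3.

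Ace, the enzyme that makes angiotensin II, spread least among the representative probe sets. Its first probe set (1427034_at) had log2 levels of 8.45, 8.20, 8.24, 8.22 and 8.16 in TPlp+AxL mice 1 to 5, against 8.24, 8.26, 8.93, 8.24 and 8.57 in AxL mice 1 to 5. The 3 arrays lay above the others by at least 0.19. The log2 change of Ace was -0.20 (95% interval -0.47 to 0.08, limma adjusted p = 0.484) and -0.04 without the 3 arrays. The second Ace probe set (1451911_a_at) ran from 7.41 to 7.61 in TPlp+AxL and from 7.46 to 7.73 in AxL, with a different set of 3 highest arrays.

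**Figure D1:**
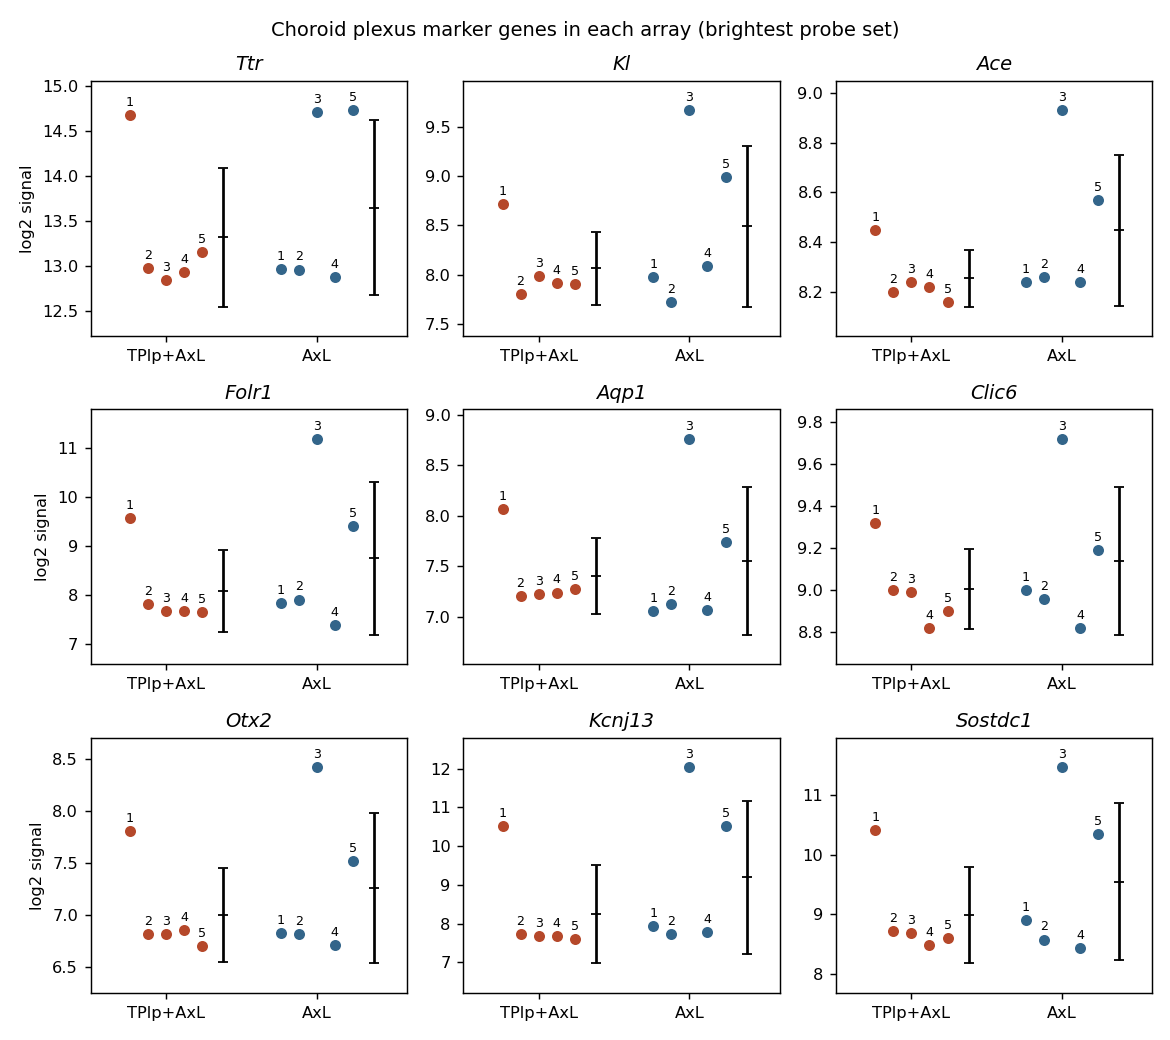
Log2 expression value (vertical axis) of the representative probe set of each of the 9 measured genes, 1 panel a gene, with TPlp+AxL mice left and AxL mice right. Each point is 1 array numbered by its replicate and bars give the mean ± SD (n = 5 each). TPlp+AxL 1, AxL 3 and AxL 5 lie above all other arrays in every panel.

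None of the 16 probe sets passed the test over all 10 arrays: limma adjusted p-values ran from 0.484 to 0.929, and 0 of 16 had an unadjusted p under 0.05. Of all 45037 probe sets, 376 passed (0.835%) and 6453 had an unadjusted p under 0.05 (14.3%). The log2 change was below 0 in 15 of 16 probe sets and in all 9 representative ones, with a median of -0.33 over the 9 genes against -0.0034 over all probe sets. With single arrays left out that median lay between -0.59 (TPlp+AxL 1 left out) and -0.06 (AxL 3 left out). All 16 intervals of 95% included 0, and no probe set had groups that did not overlap, against 3.59% of all probe sets. The direction was not particular to the markers. In lists described below, changes were below 0 in 11 of 14 ependymal, 11 of 12 meningeal, 9 of 9 oligodendrocyte and 9 of 9 endothelial genes. The counts were 8 of 12 for thalamus and habenula, 2 of 4 for blood and 5 of 10 for hippocampal neurons.

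Without TPlp+AxL 1, AxL 3 and AxL 5 the median log2 change of the 9 genes was -0.01, with 5 of 9 below 0. Again 0 of 16 probe sets passed, with limma adjusted p-values from 0.327 to 0.996 and 2 of 16, Aqp1 and Kcnj13, at an unadjusted p under 0.05, against 4743 of all 45037 (10.5%). The number past the adjusted threshold in these 7 arrays was 1 of 45037 probe sets (0.00222%), Chil3, named here after its value was seen. The groups did not overlap in 3 of 16 probe sets, those of Ace, Aqp1 and Kcnj13 above, against 10.7% of all probe sets. For Ace and Kcnj13 the separation was smaller than the printed decimals show. The highest TPlp+AxL and lowest AxL values both round to 8.24 in Ace and to 7.73 in Kcnj13.

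**Figure D2:**
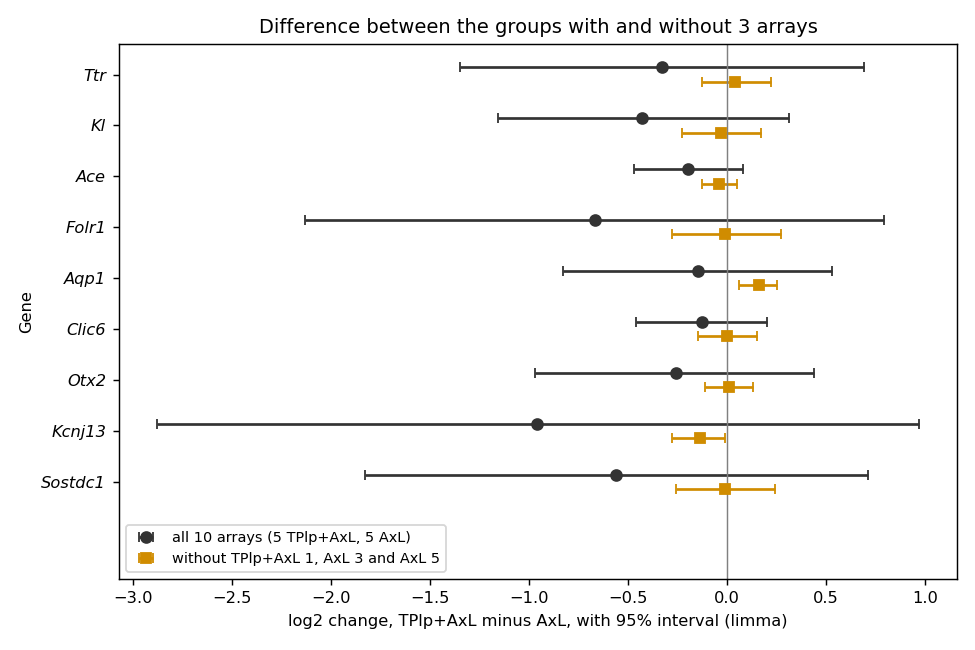
Log2 change, TPlp+AxL minus AxL, with its 95% interval for the representative probe set of each of the 9 genes (rows), over all 10 arrays and without TPlp+AxL 1, AxL 3 and AxL 5. Over all arrays every interval includes 0, and the Kcnj13 change of -0.96 becomes -0.14 without the 3 arrays.

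The levels fall into separate clusters of arrays, so pairs of markers were not correlated over all 10 arrays. TPlp+AxL 1, AxL 3 and AxL 5 were the 3 highest arrays in 14 of 16 probe sets and in all 9 representative ones, against 1.27% of all probe sets. AxL 3 was highest in 13 of 16. Of the 100 probe sets with the largest residual SD on the array, 12 were marker probe sets, and the median residual SD over the 9 genes was 0.63 against 0.08 over all probe sets. These counts describe 3 arrays that were picked out by the same genes and carry no test.

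A step of at least 1 log2 unit between the 3 arrays and the other 7 was found in 15 probe sets of the whole array. The markers made up 9 of these, and 4 belonged to other choroid plexus genes: Ecrg4 with steps of 1.81 and 1.41, Kcne2 with 1.69 and F5 with 1.31. The remaining pair, named after their values were seen, was 1448136_at with a step of 1.51 and 1459770_at, annotated as Taok1, with a step of 1.12. The first had no single gene symbol, that is none or several, and whether it measures a choroid plexus gene was not tested. A step of that size in the other direction was found in 0 probe sets.

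Within the other 7 arrays the markers varied little, with a median range of 0.32 log2 units over the 9 genes against 0.24 over all probe sets. Over the 36 pairs of genes the correlation across these 7 arrays had a median of 0.07 and was above 0 in 21 pairs. For 1 of 36 pairs, Aqp1 with Kcnj13, it passed adjustment: Pearson r = -0.88 (exact permutation p = 0.000198, the smallest that 5040 orderings allow, adjusted p = 0.00714) and Spearman rho = -1.0 (exact permutation p = 0.000397, adjusted p = 0.0143). Without the 2 arrays farthest from the Aqp1 median, r was -0.80. In both genes the groups did not overlap in these 7 arrays, and with the group means taken out r was -0.87 (exact permutation, adjusted p = 0.181). The count of pairs was 0 with any of the 7 arrays other than AxL 2 left out, and 2 without AxL 2. With 1 array fewer, the smallest p that the orderings allow does not fall under 0.05 for a lone pair adjusted over 36 pairs. A count of 1 was therefore not possible there, and the counts of 0 say nothing on how stable this pair is. Clic6 with Sostdc1 had r = 0.87 (exact permutation p = 0.00734, adjusted p = 0.132).

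Other genes of the choroid plexus were taken from a list of 35, of which 33 were measured. None of the 33 passed the test in either direction (limma, 0 also at an unadjusted p under 0.05, against 14.3% of all probe sets), with a median log2 change of -0.17 and of 0.02 without the 3 arrays. TPlp+AxL 1, AxL 3 and AxL 5 were the 3 highest arrays in 25 of 33 genes (75.8%). The correlation with the marker mean over the 10 arrays, used here only to rank likeness, with no test, was at least 0.8 in 27 of 33 (81.8%) against 1.4% of 18184 genes outside the markers. That measure rests on the 3 arrays: with them left out it reached 0.8 in 1 of 33 genes. The largest log2 changes of the list were those of Ecrg4, -0.83 (limma adjusted p = 0.588), and of Igf2, a growth factor secreted by the choroid plexus, -0.65 (limma adjusted p = 0.466).

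The genes outside the marker set most like its mean were F5, Slc2a12, Kcne2, Col8a2, Ecrg4, Slc4a5, Pcolce, Fap, Krt18, Rdh5, Frem1 and Cltrn, with r from 0.976 to 0.995 over the 10 arrays. Of these 12, 6 were in the choroid plexus list. F5, coagulation factor V, had log2 levels of 8.92, 7.51, 7.51, 7.58 and 7.48 in TPlp+AxL mice 1 to 5, against 7.61, 7.47, 10.36, 7.38 and 9.05 in AxL mice 1 to 5. Kcne2, a potassium channel beta subunit, had 9.05, 6.77, 6.71, 6.78 and 6.80 in TPlp+AxL mice 1 to 5, against 6.75, 6.88, 9.64, 6.90 and 8.58 in AxL mice 1 to 5. In both genes the same 3 arrays were high and the rest lay close together. Slc2a12, a glucose transporter that was not in the list, had 8.04, 7.37, 7.33, 7.31 and 7.32 in TPlp+AxL mice 1 to 5, against 7.42, 7.33, 8.57, 7.32 and 7.87 in AxL mice 1 to 5.

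Some listed choroid plexus genes did not follow the markers, and those under 0.8 are named here after their values were seen. Slco1a5, an organic anion transporter, had r = -0.502 with the marker mean, and Cldn2, a tight junction protein of the epithelium, had -0.423. Lmx1a, a roof plate transcription factor, had r = -0.268, Car12 0.328, Slc29a4 0.429 and Wdr86 0.760. Except for Car12 these genes varied little. Their ranges over the 10 arrays were 0.14 (Slco1a5), 0.26 (Cldn2), 0.28 (Lmx1a), 0.20 (Slc29a4) and 0.36 (Wdr86) log2 units. Car12 was highest in AxL 4 at 10.86, then 10.08 in AxL 3, 9.73 in TPlp+AxL 1 and 9.43 in AxL 5. Its other arrays lay between 9.05 and 9.28.

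**Figure D3:**
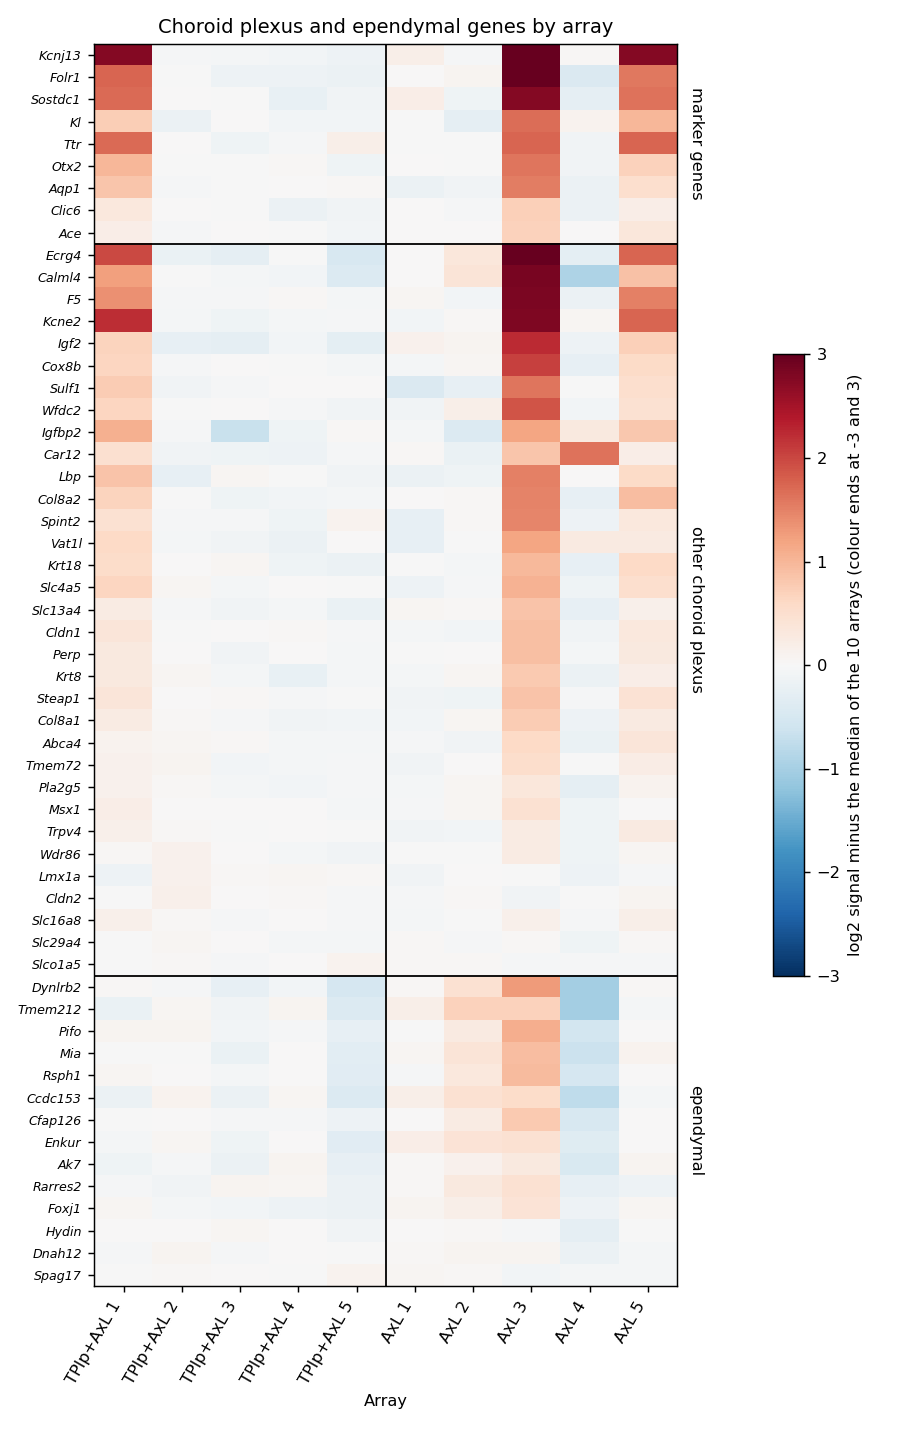
Log2 value minus the gene's median over the 10 arrays (colour, from -3 to 3) for the 9 marker genes, 33 other choroid plexus genes and 14 ependymal genes in rows, with TPlp+AxL arrays left and AxL arrays right. TPlp+AxL 1, AxL 3 and AxL 5 are high in the marker block and in 25 of the 33 other choroid plexus genes, but in none of the 14 ependymal genes were they the 3 highest.

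Marker lists of neighbouring cell types and regions were set beside the choroid plexus genes. Ependymal cells, the ciliated lining of the ventricles, had 14 genes, with a mean log2 level of 8.13 to 8.38 in TPlp+AxL and 7.89 to 8.93 in AxL. AxL 3 was highest and AxL 4 lowest by this list, while AxL 5 at 8.36 and TPlp+AxL 1 at 8.34 lay among the other arrays, and the 3 arrays were the highest in 0 of 14 genes. Dynlrb2, a dynein light chain of cilia, had log2 levels of 9.01, 8.95, 8.73, 8.90 and 8.47 in TPlp+AxL mice 1 to 5, against 9.0, 9.44, 10.25, 7.95 and 9.0 in AxL mice 1 to 5. Its high array was AxL 3, without TPlp+AxL 1 and AxL 5. Tmem212, the ependymal gene with the next largest range, had 9.92 in AxL 2 and 9.91 in AxL 3. By the list mean AxL 2 came next after AxL 3, at 8.65.

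The 12 genes of meninges and fibroblasts had mean log2 levels of 8.88 to 9.03 in TPlp+AxL and 8.95 to 9.15 in AxL. The 12 genes of thalamus and habenula, which lie below the hippocampus, ran from 8.27 to 8.43 in TPlp+AxL and from 8.25 to 8.53 in AxL. The 4 measured blood genes of 7 ran from 7.99 to 8.11 in TPlp+AxL and from 8.02 to 8.09 in AxL. Hba-a1, Alas2 and Slc4a1 among them were dim, at 7.47 or lower in every array, against array medians of at least 7.88. How much blood each array held was not tested. TPlp+AxL 1, AxL 3 and AxL 5 were the 3 highest arrays in 0 genes of these 3 lists.

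The 10 genes of hippocampal neurons, which define the labelled tissue, had mean log2 levels of 9.62 to 9.73 in TPlp+AxL and 9.61 to 9.82 in AxL. Oligodendrocyte genes, 9 of 10 measured, ran from 11.17 to 11.40 in TPlp+AxL and from 11.28 to 11.66 in AxL. Endothelial genes, 9 of 10 measured, ran from 8.33 to 8.50 in TPlp+AxL and from 8.48 to 8.77 in AxL. The 3 arrays were highest in 1 of 9 oligodendrocyte genes (Mbp, named after its values were seen) and in 0 endothelial and 0 neuronal genes. No gene of these 7 lists passed the limma test over all probe sets, while 6 of 9 oligodendrocyte and 6 of 9 endothelial genes had an unadjusted p under 0.05, against 14.3% of all probe sets. All 9 oligodendrocyte and all 9 endothelial genes were lower in TPlp+AxL, also without the 3 arrays. Their median log2 changes were -0.25 and -0.17 over all arrays, and -0.19 and -0.10 without the 3 arrays. The genes with the largest range in their lists were Ogn at 1.25 log2 units and Fn1 at 0.89 (meninges), Zic1 at 1.85 and Slc17a6 at 1.22 (thalamus and habenula), Opalin at 1.03 and Ugt8a at 0.81 (oligodendrocytes), Cldn5 at 1.14 and Abcb1a at 0.82 (endothelium), and Tdo2 at 1.33 and C1ql2 at 1.04 (hippocampal neurons). The part of these cell types in the marker values was not tested.

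**Figure D4:**
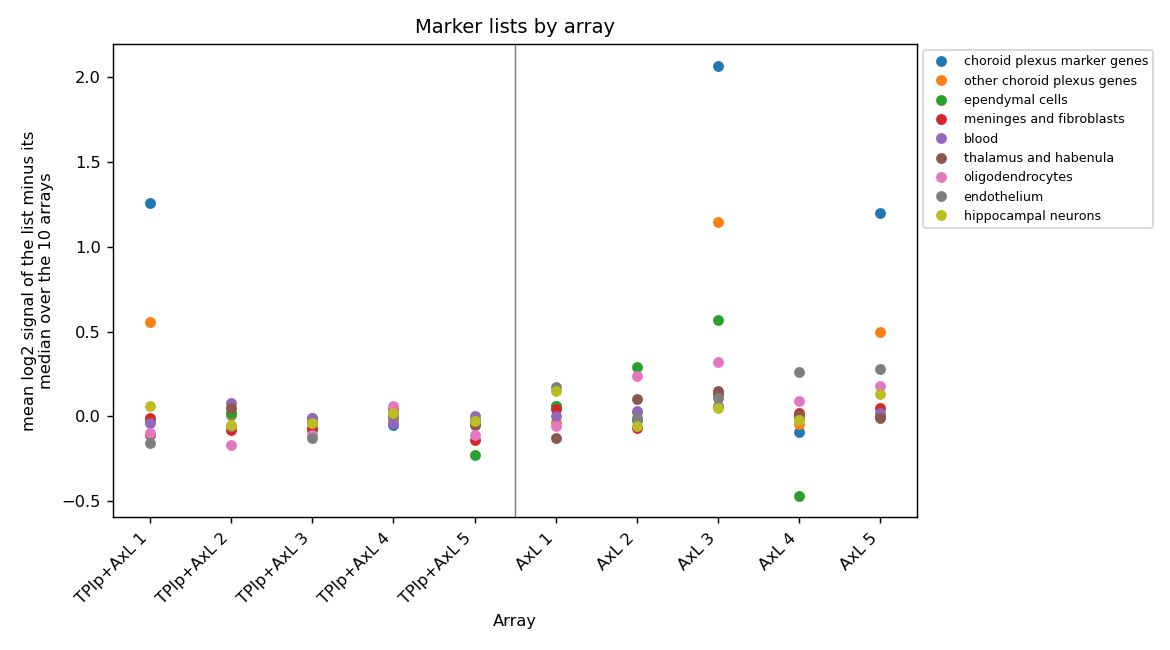
Mean log2 level of each gene list minus its median over the 10 arrays (vertical axis), with TPlp+AxL arrays left and AxL arrays right, 1 colour a list and 1 point an array. The marker list stands out in TPlp+AxL 1, AxL 3 and AxL 5, whose mean log2 levels were 9.73, 10.54 and 9.67, whereas the ependymal list is highest in AxL 3 and lowest in AxL 4.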

How the data were processed

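RNA of 10 mouse hippocampi was measured on 1 array each. Deposited log2 values came from RMA run by the authors (from the submitters' processing notes, with no version given in the sources used here). The 64 control probe sets were left out and 45037 were tested with no filter. Gene symbols came from the platform annotation, updated through Entrez identifiers for 34741 of 34945 singly annotated probe sets. The brightest probe set on average stood for its gene. TPlp+AxL minus AxL was fitted with limma 3.58.1 (lmFit and eBayes, R 4.3.3), with Benjamini-Hochberg adjustment over 45037 probe sets, two-sided, at 0.05, and tested on simulated data. The p-values measure the spread between these mice, and the number of arrays limits the precision. Pairs of genes were tested by exact two-sided permutation over 7 arrays, adjusted over 36 pairs.

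The markers and the lists were chosen with earlier results of these data known. The named genes are all markers, the 12 genes with the highest r with the marker mean, and, of the other choroid plexus list, the 6 with the highest r and those with the largest changes, and up to 2 per further list with the largest range. The few genes named outside this rule, chosen after their values were seen, are marked where they appear. Probe sets ending in _x_at or _s_at can share sequence between genes or transcripts. Alternatives covered normalization, variance model, array weights, a replicate block, dim probe sets, and each array left out. Promoter windows came from RefSeq (GRCm38.p6).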

Additional observations from a re-analysis of the deposited data

Results flagged for a closer look

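One sample lay far from the other arrays of its group in 28 of 90 sets of 5 arrays looked at. The measure is the gap to the nearest array divided by the range of the group, with a critical value of 0.71. TPlp+AxL 1 was the high array of TPlp+AxL in 25 of the 28. Its flags in 13 marker probe sets restate the values by which this array was set apart above, and carry no test. The measure was taken in 45 probe sets and not over the whole array. Among the marker probe sets its ratio was 0.957 in Kcnj13, 0.929 in Aqp1, 0.914 in Folr1, 0.869 in Clic6 (1454866_s_at), 0.855 in Otx2, 0.789 in Kl and 0.74 in Ace. In Ttr it was 0.905 (1451580_a_at), 0.824 (1454608_x_at), 0.865 (1455913_x_at) and 0.873 (1459737_s_at), and in Sostdc1 0.874 and 0.877.

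Among other genes the ratio of TPlp+AxL 1 was 0.962 in Kcne2, 0.935 in Cltrn, 0.927 in F5, 0.917 in Slc2a12, 0.893 in Rdh5, 0.884 in Frem1, 0.881 in Fap, 0.851 in Col8a2, 0.816 in Ecrg4, 0.808 in Slc4a5, 0.785 in Igf2 and 0.773 in Pcolce. These genes were named for their likeness to the markers or their size of change, so the flags are not independent of the marker values. In AxL, where 2 arrays were high, the same measure passed in 1 marker probe set, the second Ace probe set, with AxL 3 high at 0.717.

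2 further results concern genes of other lists. Alas2, an enzyme of haem synthesis, was apart in TPlp+AxL 2 with a ratio of 0.745, at a dim log2 level of 7.47. Tdo2, a tryptophan-degrading enzyme of hippocampal granule neurons, was low in AxL 4 with a ratio of 0.938.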

How the results depend on the processing

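The count of probe sets past the threshold was 376. It was 241 with the replicate block, 753 with array weights, 757 at an adjusted p under 0.10 and 1 without TPlp+AxL 1, AxL 3 and AxL 5, and leaving out each array in turn gave 185 to 460, with 240, 185 and 243 without TPlp+AxL 3, 4 and 5, and 220 without AxL 5. The labels do not say whether the replicate numbers pair the arrays. Correlations of same-numbered deviations ran from -0.224 to 0.363. They were not set against those of differently numbered arrays, so they cannot decide this. No marker probe set and no other choroid plexus gene passed under any of these settings, and the block changed no marker call. The median change of the 9 genes, -0.33, lay between -0.59 (TPlp+AxL 1 left out) and -0.06 (AxL 3 left out) with single arrays removed, and was -0.22 without TPlp+AxL 3, -0.50 without AxL 1 or AxL 2, -0.52 without AxL 4 and -0.20 without AxL 5. The replicate block, the variance model and leaving out dim probe sets cannot alter a log2 change, so no direction could turn under them. Of 169 marker values under the alternatives, 162 kept their direction and their side of the threshold. These include values near 0, such as Folr1 at -0.01 without the 3 arrays. The other 7 turned direction: Aqp1 at 0.16, Clic6 at 0.02 and Otx2 at 0.03 without AxL 3 (the other end of the range, without TPlp+AxL 1, was -0.31, -0.21 and -0.46), and without the 3 arrays, Ttr at 0.04, Aqp1 at 0.16, Clic6 at 0.00 and Otx2 at 0.01. The count of 1 gene pair became 0 with group means taken out, and 0 to 2 with single arrays of the 7 left out (2 without AxL 2). With an array left out, so few orderings remain that a lone pair could not pass. The number of other choroid plexus genes alike to the markers, 27, became 1 without the 3 arrays. The cause of these changes was not tested. With no detection calls, how far low values lie above background was not tested.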
